A study of Triticum aestivum with 2 samples.

Results

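In a cross-section of a root, the stele is the central cylinder that carries water and sugars. It holds the xylem and the phloem, the dividing provascular cells from which both arise near the tip, and the pericycle as its outermost layer, and the endodermis encloses it. Described here are 32 wheat genes whose transcripts lay in the middle of distal root sections and that the study's table of spatial markers does not list. They were chosen by measured values, namely their counts of molecular identifiers (MIDs) in 3 circles placed over sections of the distal root region chip. A gene had to have at least 100 MIDs in the circles, at least 45% of them nearer to the centre than 0.50 of the radius (R), and a level in circle 1 within 4-fold of that in circles 2 and 3. Marker table genes, the orthologues of PDF2.3 and genes whose ID ends in LC, the mark of low confidence, were left out. Of 100979 nuclear genes with an MID on either chip, 66267 had one in the circles, 7816 had at least 100 and 7385 of these were open to the rule. The share of them with 45% or more in the centre was 0.609% (45 genes), and 13 of the 45 were left out by the 4-fold limit.

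The roots came from 15-day-old, soil-grown seedlings of Chinese Spring, a bread wheat with the 3 subgenomes A, B and D. In Stereo-seq a 10 μm section is laid on a chip whose spots carry position barcodes and capture polyadenylated RNA, which places every counted transcript. There were 2 groups, the root cap region and the distal root region, with 1 chip each, so no comparison has a replicate library, no test was made and intervals cover counting error only. Sections of 1 chip are not independent samples, and in such sections fewer cells of a type and less RNA per cell cannot be told apart. The circles held 1357106, 1723295 and 2194597 nuclear MIDs, a further section of the same chip that took no part in the choice held 1954501, and the 10 outlined sections of the root cap region held 97397 to 582063. On the map of all MIDs sections 3, 7 and 8 of the root cap region looked torn.

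The text calls distances below 0.50 R the centre, those from 0.50 to 1 R the ring and those below 0.25 R the inner core. Just inside the 45% limit stood TraesCS1D03G0730700 with 69 of 153 MIDs in the centre (45.1%), TraesCS2A03G0391200 with 47 of 104 (45.2%) and TraesCS1D03G0200400 with 52 of 115 (45.2%). Just outside stood TraesCS1D03G0672800 with 53 of 118 (44.9%), TraesCS1A03G0005600 with 48 of 108 (44.4%) and TraesCS4A03G0576100 with 150 of 338 (44.4%). The ID of the last one follows directly on that of the member TraesCS4A03G0576000, which had 163 of 229 (71.2%). No genome or sequence table used here carries these gene IDs, so positions and sequences are not given.

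Names could be given to 3 members from the study's tables, and 29 had none. TraesCS5A03G0264700 is a WLIM1-like LIM domain protein, of a family that binds and bundles actin filaments in other plants. TraesCS1A03G0600500 is a RAP2-3-like ethylene-responsive transcription factor, whose Arabidopsis namesake belongs to the factors that are degraded in the presence of oxygen. TraesCS2B03G0976900 is a homolog of diphthine methyltransferase, an enzyme that in yeast takes part in modifying a translation elongation factor. Without a product name, TraesCS5A03G0580100 is listed by the study under its provascular cluster and TraesCS7D03G0195000 under its phloem cluster.

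The members as a whole lay mostly in the inner part of the section. In the circles they had 5131 MIDs in the centre and 2844 in the ring, a centre share of 64.3%, against 25.2% for all nuclear genes. These values chose the members and are given as a description. The summed members had 6518 MIDs per 1000000 spots in the centre and 1204 in the ring, while all genes had 1686531 in the centre and 1671235 in the ring. Transcripts were also found off the tissue, and from 1.1 to 1.5 R the members had 754 MIDs per 1000000 spots. The ring was thus 1.60 times as dense as the ground outside the section for the members and 1.42 times for all genes, and the centre was 8.64 times and 1.43 times as dense. The radial profile of the summed members lay at 3.15, 3.25 and 3.32 times the expectation from all genes in the innermost 3 steps of 0.1 R. Without TraesCS5D03G0225100, the member with the most MIDs, it declined outward over these steps, with 3.59, 3.37 and 3.11 times. The profile of all members declined to 1.82 times between 0.4 and 0.5 R and to 0.859 times in the next step.

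The label of stele genes was checked against the marker lists of the study, which came from its single-cell clusters and had been viewed on sections of these chips, so they are not independent of them. Since the rule set the members' share in the circles, the further distal section, which the choice did not use, served for the check. There the members had 62.5% of their MIDs in the centre. Provascular genes (8) had 84.4%, xylem genes (4) 73.3% from 45 MIDs, phloem genes (5) 88.5% from 52 MIDs and pericycle genes (7, of which 2 are PDF2.3 orthologues) 75.8%. The endodermis list (5) had 32.4% from 71 MIDs, and the cortex and epidermis lists had 8.72% and 5.02%. In sum the members thus lay between the endodermis list and the 4 lists of the stele. Single members ran from 17.6 to 91.4%, so some lay below the endodermis list. In the circles that list had 50.3% (43.0 to 57.6%), so the 45% limit did not bar genes placed like it. The members may therefore include genes of the endodermis. In the further section the profile of the summed members was less peaked than that of the provascular list. It stood at 2.99 times the expectation in the innermost step, against 12.1 times for the provascular list.

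**Figure D1:**
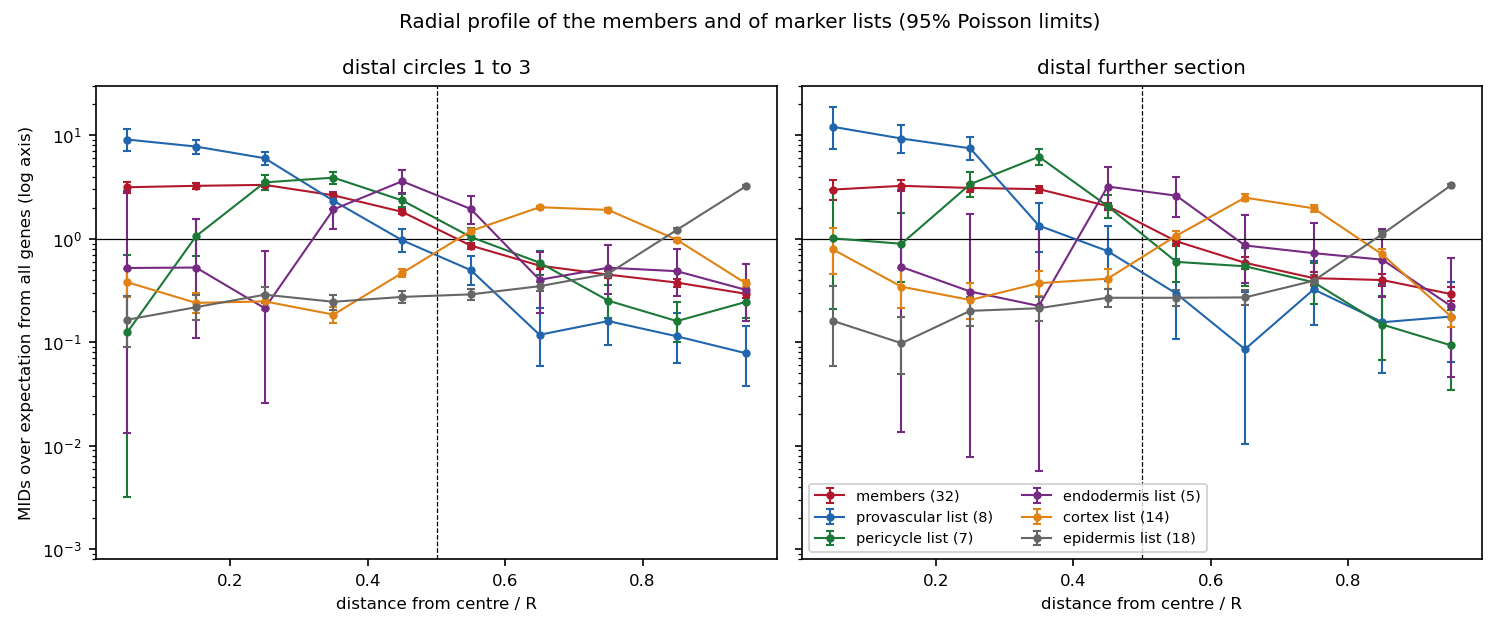
MIDs of the summed members and of 5 marker lists in steps of 0.1 R, divided by the number expected from all nuclear MIDs (log axis), in circles 1 to 3 (left) and in the further section (right). Points are sums over the genes of a list, bars are exact 95% Poisson limits, and steps with no MIDs are left out. The members lie at 3.15 to 3.32 times the expectation out to 0.3 R in the circles (3.59 to 3.11 times without TraesCS5D03G0225100), below the provascular list, which reaches 9.11 times.

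In the further section the members had 1984 MIDs in the centre and 1192 in the ring, a centre share of 62.5% (60.8 to 64.2%), against 23.2% for all genes. On the log2 scale the ratio of centre to ring exceeded that of all genes by 2.47 (2.36 to 2.57). Without TraesCS5D03G0225100, which alone gave 764 of the 3176 MIDs, the value was 2.25. Of 30 members with at least 20 MIDs in this section, 22 had a ratio at least 2-fold that of all genes, and the background over 13061 genes with as many MIDs was 7.15%. The median centre share of the members was 51.4%, against 23.0% for all genes tested there. The section lay on the same chip as the circles and is no biological replicate.

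Members far above the limit in the circles also had high shares in the further section. All 14 members with over 55% in the centre of the circles had at least 45% there in the further section (59.6 to 91.4%, median 75.2%). Of the other 18 members 5 did so (17.6 to 61.8%, median 37.0%), and among the genes open to the rule the background was 1.56%. The dividing value of 55% was chosen after the values were seen. The highest shares in the further section belonged to TraesCS2B03G1542000 (117 MIDs in the centre and 11 in the ring, 91.4%) and TraesCS7D03G0195000 (62 and 9, 87.3%). The same 2 genes had 80.8% and 85.5% in the circles, where TraesCS7D03G0195000 had the highest share of all members. The limits of the log2 ratio lay above 0 for 23 of the 32 members, a count for which the share over all genes was not computed. They included 0 for TraesCS5A03G1242900 (25 in the centre and 75 in the ring), TraesCS2B03G1002900 (10 and 33, 23.3%) and TraesCS1D03G0200400 (3 and 14, 17.6%). The same held for TraesCS4D03G0283400 (30.3%), TraesCS1D03G0730700 (27.4%), TraesCS5D03G0855600 (28.3%), TraesCS7B03G0252900 (34.6%), TraesCS2A03G0391200 (36.4%) and TraesCS4A03G0978800 (37.5% of only 8 MIDs). Among named members, TraesCS1A03G0600500 had 45 and 14 (76.3%), TraesCS2B03G0976900 had 37 and 14 (72.5%) and TraesCS5A03G0264700 had 26 and 30 (46.4%).

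**Figure D2:**
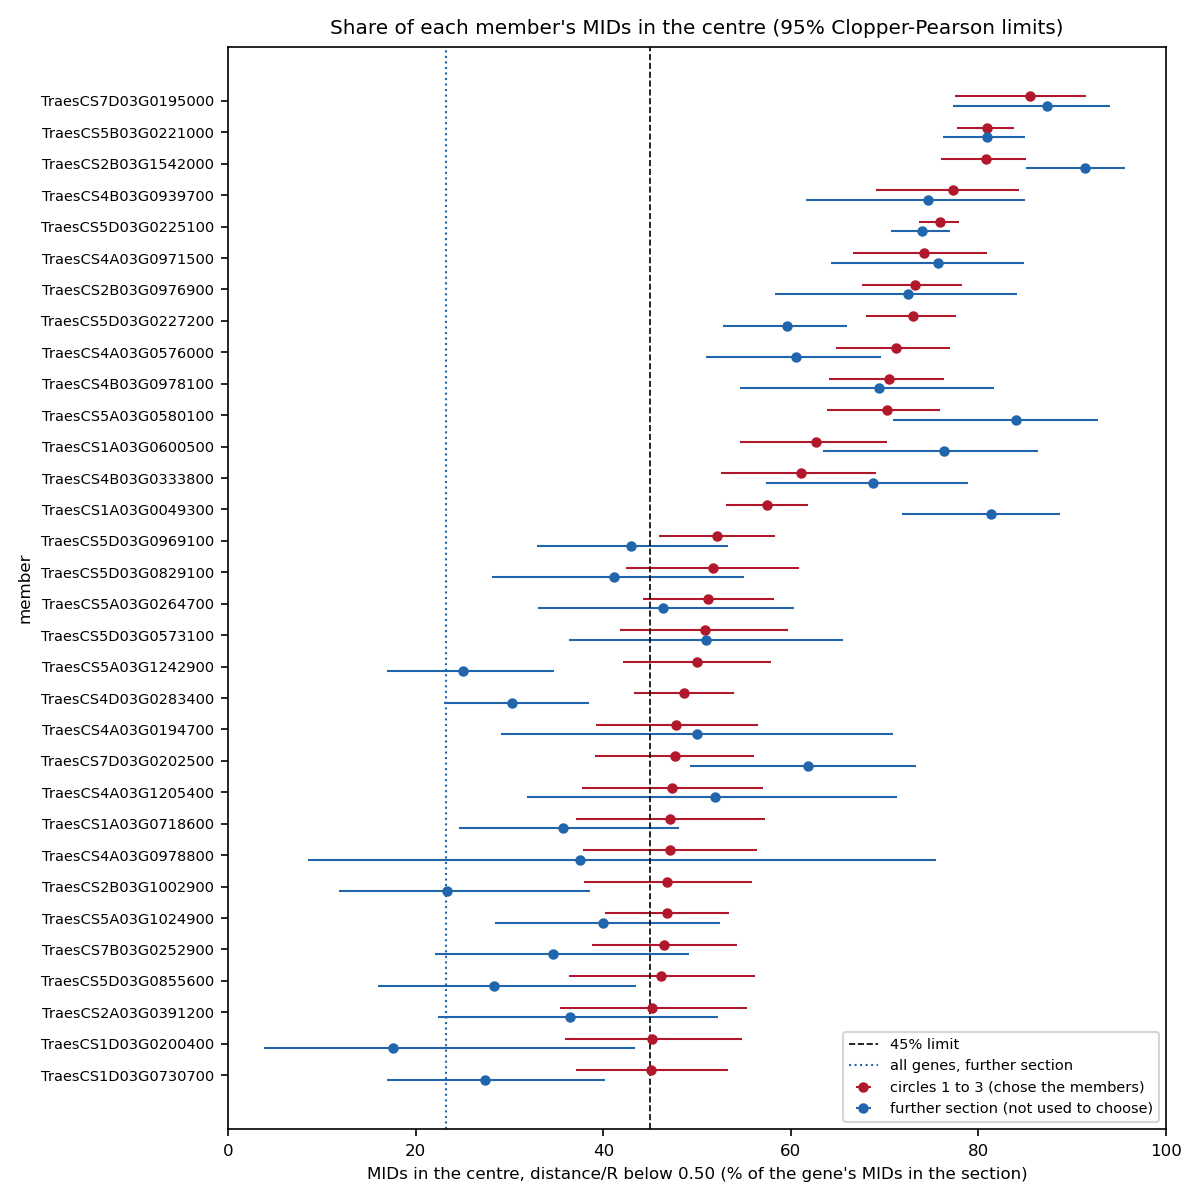
Share of each member's MIDs in the centre (x axis, percent) for the 32 members (y axis), in circles 1 to 3, which chose them, and in the further section, which did not. Bars are 95% Clopper-Pearson limits, the dashed line is the 45% limit and the dotted line the 23.2% of all genes in the further section. The 14 members at the top stay above the dashed line in both, and most of those below them fall towards the dotted line.

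Within the centre the members took different places. The inner core holds 25% of the area of the centre, and all genes had 24.7% of their centre MIDs in it. The members had 32.4% (31.1 to 33.7%), against 56.5% for the provascular list, 12.0% for the pericycle list and 18.5% for the phloem list. The xylem list had 18.8% and the endodermis list 4.17%. By single members, the 95% limits lay above 25% for 15, beside a background of 5.99%, and below it for 4, beside 7.33%, among genes open to the rule with at least 20 MIDs in the centre. The rule chose the members by these centre MIDs. Their high centre share also gives them narrower limits than a background gene of equal count. Both counts are therefore a description. In the further section 13 of these 15 had over 25% in the inner core, where 62.4% of all genes called so in the circles did. The limits there lay above 25% for 10 of the 15. Of the 4 members below, 3 had less than 25% in the further section, 2 of them with limits below it, beside 67.3% of all such genes.

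Inner core members included TraesCS4B03G0978100, with 68.1% (60.3 to 75.3%) of its centre MIDs in the core, TraesCS5A03G1242900 with 63.0% (51.5 to 73.4%), TraesCS4A03G0978800 with 57.1% (43.2 to 70.3%), TraesCS4A03G1205400 with 55.8% (41.3 to 69.5%) and TraesCS2B03G1542000 with 54.6% (48.2 to 60.9%). Outside the circles, in the further section, TraesCS4B03G0978100 had 52.9% (35.1 to 70.2%) and TraesCS5A03G1242900 8 of 25 centre MIDs (14.9 to 53.5%) in the core, TraesCS4A03G0978800 had 2 of only 3 centre MIDs in the core, and TraesCS4A03G1205400 had 57.1% (28.9 to 82.3%). In the circles TraesCS2B03G1542000 had 691 MIDs per 1000000 spots in the core, 191 in the rest of the centre and 39.6 and 14.5 from 0.50 to 0.75 R and beyond. Of its 117 centre MIDs in the further section 82 were in the core (70.1%, 60.9 to 78.2%). All 3 members with a product name also leaned to the core, with 48.6% for TraesCS5A03G0264700, 46.8% for TraesCS2B03G0976900 and 46.5% for TraesCS1A03G0600500, and with 57.7%, 62.2% and 46.7% in the further section.

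TraesCS5D03G0227200 was densest in the outer part of the centre. It had 147 MIDs per 1000000 spots in the inner core, 381 in the rest of the centre, 74.2 from 0.50 to 0.75 R and 15.2 beyond, against 24.4 off the tissue. The core was thus thinner than the rest of the centre but denser than the ring, and 11.4% (7.78 to 16.0%) of its centre MIDs were in the core. The share in the further section was 8.96% (4.71 to 15.1%), from 12 of 134 MIDs. There the pericycle list had 8.95%, the endodermis list 8.70% of 23 centre MIDs and the phloem list 6.52% of 46. The xylem list had 18.2% of 33. Core shares thus did not tell the pericycle, endodermis and phloem lists apart, and no tissue is assigned from them. TraesCS5A03G1024900 had none of its 28 centre MIDs in the core of the further section. The other low core shares in the circles were those of TraesCS2A03G0391200 (10.6%), TraesCS4D03G0283400 (16.3%), TraesCS5A03G1024900 (16.5%) and TraesCS7B03G0252900 (16.5%), of which the last has limits that reach 26.5%. TraesCS7D03G0195000 and TraesCS4A03G0971500 likewise lay off the core within the centre, with 20.2% and 17.4% in the circles, where the limits of both reach past 25%. In the further section they had 9.68% (3.63 to 19.9%) and 12.5% (5.18 to 24.1%), beside the list values given above. The 2 members with the most MIDs lay nearer to an even spread, TraesCS5D03G0225100 with 25.6% (23.2 to 28.1%) and TraesCS5B03G0221000 with 29.1% (25.2 to 33.1%) in the core, and with 20.4% (17.1 to 23.9%) and 19.9% (15.3 to 25.2%) in the further section.

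**Figure D3:**
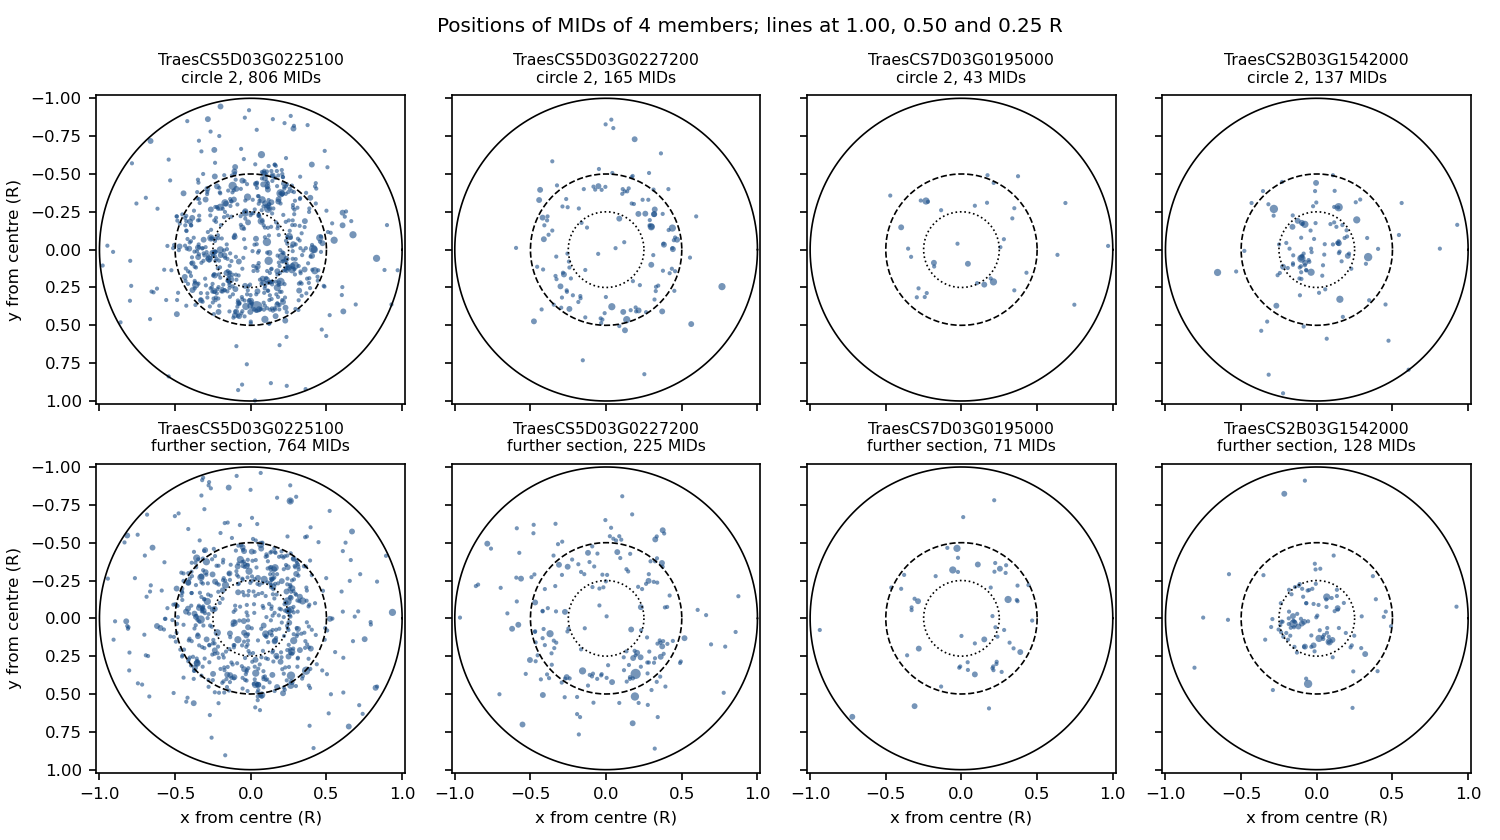
Positions of the MIDs of 4 members, relative to the centre in units of R, in circle 2 (top) and in the further section (bottom). Each point is a spot, its size grows with the MIDs of the spot, and lines mark 1, 0.50 and 0.25 R. TraesCS5D03G0225100 fills the inner part, TraesCS5D03G0227200 and TraesCS7D03G0195000 have few MIDs in the inner core, and TraesCS2B03G1542000 gathers in it.

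Levels also differed between distal sections on scales that the rule did not bind, since it compared circle 1 with the other circles only in sum. Levels are given as CPM, the MIDs per 1000000 nuclear MIDs of a section. In circle 3 against circle 2, 8 of the 32 members were at least 2-fold lower and 4 at least 2-fold higher, beside backgrounds of 6.76% lower and 6.50% higher among the 7385 genes open to the rule. TraesCS5D03G0227200 was at 5.47 CPM in circle 3 (12 MIDs), against 95.7 in circle 2 (165 MIDs), and was 17.5-fold lower (9.76- to 34.6-fold). TraesCS5D03G0829100 had 4 MIDs in circle 3 and 54 in circle 2, 17.2-fold lower (6.34- to 65.4-fold). Lower in circle 3 by smaller factors were TraesCS5D03G0225100 (130.3 against 468, 3.59-fold) and TraesCS5B03G0221000 (65.6 against 162, 2.47-fold).

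The opposite was found for TraesCS4A03G0978800, with 98 MIDs in circle 3 and 6 in circle 2 (12.8-fold higher, 5.69- to 35.8-fold), and for TraesCS1A03G0049300, with 306 and 40 (6.01-fold, 4.31- to 8.58-fold). With 15 MIDs in circle 1, TraesCS4A03G0978800 reached the minimum of 100 only through circle 3, so its excess there is partly set by the choice. TraesCS5D03G0227200 had 225 MIDs (115 CPM) in the further section, TraesCS5D03G0829100 had 56 and TraesCS4A03G0978800 had 8. In all, 28 of the 32 members were within 2-fold of circle 2 in the further section and 23 within 2-fold of circle 3, beside backgrounds of 95.6% and 92.0% among the genes open to the rule. The sections also differed in their marker lists, and the provascular list stood at 202 CPM in circle 3, against 52.2 in circle 2. The G1/S list, of genes that act before and during DNA replication, stood at 6618 and 2779. The part of these differences in the members' levels was not tested.

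On the root cap region chip the members were lower in sum. Their summed level was 1032 CPM in the 10 sections, against 1512 in the distal circles, a ratio of 0.683 (0.655 to 0.711). By section the levels overlapped, with 492 to 1449 CPM in the root cap region, against 1912, 1645 and 1160 in circles 1, 2 and 3. Sections 2 (1211), 4 (1449) and 9 (1362) lay above circle 3, and no section reached circle 2. At least 2-fold lower were 13 of the 32 members and at least 2-fold higher were 3, beside backgrounds of 15.4% and 3.13% among the genes open to the rule. The median ratio was 0.528 for the members, against 0.830 for all of these genes. The comparison is between 2 libraries. The members had been chosen by their counts in the distal circles, and the part of that choice in the lower level was not tested. In the further section, which took no part in the choice, their summed level was 1625 CPM.

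Among the 5 members with the lowest ratios were 3 of group 5. TraesCS5D03G0225100 was at 20.9 CPM in the root cap region (64 MIDs in all 10 sections, 2.98 to 37.8 CPM), against 307 in the circles (387, 468 and 130.3), 14.7-fold lower (11.4- to 19.1-fold). No section of the root cap region reached the lowest circle. TraesCS5B03G0221000 was at 19.9 (4.98 to 47.1), against 126 (178, 162 and 65.6), and was 6.32-fold lower (4.86- to 8.35-fold). TraesCS5D03G0227200 was at 7.51, against 66.0 (8.78-fold lower), and the transcription factor gene TraesCS1A03G0600500 at 3.92 from 12 MIDs, against 30.0 (7.64-fold lower, 4.25- to 15.1-fold). TraesCS2B03G1542000 was at 11.8, against 58.4 (4.97-fold lower). Where the counts allowed it these genes still lay inside. Of the 64 MIDs of TraesCS5D03G0225100 59.4% were in the centre, of the 61 of TraesCS5B03G0221000 70.5% and of the 36 of TraesCS2B03G1542000 69.4%, against 22.9% for all genes.

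Higher in the root cap region were TraesCS4B03G0939700, TraesCS5A03G1242900 and TraesCS1A03G0049300. The first was at 144 CPM in the root cap region (440 MIDs), against 24.3 in the circles (128 MIDs), a ratio of 5.92 (4.85 to 7.27). The second was at 152, against 30.7 (4.93, 4.12 to 5.94), and the third at 201, against 98.6 (2.03, 1.81 to 2.29). Next came TraesCS5A03G0580100 with a ratio of 1.23 (1.0 to 1.5) and TraesCS2B03G1002900 with 1.04 (0.771 to 1.39). TraesCS1A03G0049300 and TraesCS2B03G1002900 were counted mostly outside exons, and the non-exonic share of all MIDs was itself 1.69 times as high in the root cap region as in the circles. Counted among non-exonic MIDs only, which was added after seeing the data, the ratio was 1.21 (1.08 to 1.37) for TraesCS1A03G0049300 and 0.627 (0.448 to 0.872) for TraesCS2B03G1002900. Together the first 3 made up 1518 of the members' 3160 MIDs in the root cap region. Without them the summed level ratio was 0.395 (0.374 to 0.417).

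The levels of the 3 genes differed between sections. TraesCS4B03G0939700 was at 179, 306, 176 and 262 CPM in sections 2, 4, 7 and 9, at 113 and 78.8 in sections 3 and 8, and at 15.5 to 60.9 in sections 1, 5, 6 and 10. TraesCS5A03G1242900 was at 182, 316, 155 and 283 in the first 4 of these, at 185 and 118 in sections 3 and 8, and at 25.8 to 49.8 in the others. TraesCS1A03G0049300 was at 256, 319, 277 and 364, at 226 and 276, and at 25.8 to 55.4. All 3 were thus lowest in sections 1, 5, 6 and 10. Sections 3 and 8 overlapped with the high ones, since section 8 was above section 2 for TraesCS1A03G0049300 and section 3 above sections 2 and 7 for TraesCS5A03G1242900. The provascular list was at 279 to 584 CPM in sections 2, 4, 7 and 9, against 36.1 to 252 in the other 6, and the cortex list at 3244 to 3486, against 361 to 2135. The part of these lists in the levels of the 3 genes was not tested.

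In these 4 sections the 3 genes were not alike in place. TraesCS1A03G0049300 had 225 MIDs in the centre and 281 in the ring, and its centre to ring ratio exceeded that of all genes by 1.31 on the log2 scale (1.05 to 1.57). The value was -0.25 (-0.62 to 0.11) for TraesCS5A03G1242900, with 83 and 305 MIDs, and 0.05 (-0.30 to 0.39) for TraesCS4B03G0939700, with 96 and 287. By section TraesCS4B03G0939700 had 37 of 104 MIDs in the centre in section 2 (35.6%, against 24.4% for all genes), 29 of 123 in section 4 (23.6%, against 28.4%), 13 of 68 in section 7 (19.1%, against 14.8%) and 17 of 88 in section 9 (19.3%, against 30.9%). Its value was 1.72 (0.31 to 3.05) in sections 1 and 6, from 22 MIDs, and 2.20 (0.82 to 3.59) in sections 3 and 8, from 21 MIDs. Over all 10 sections it was 0.39 (0.08 to 0.69), with 28.0% in the centre, against 77.3% in the circles and 74.6% in the further section. The provascular list had 72.0% of its MIDs in the centre over all 10 sections.

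Over the whole root cap region chip the members had 1282 of 3160 MIDs in the centre, a share of 40.6% (38.9 to 42.3%), against 22.9% for all genes. The log2 excess of their centre to ring ratio was 1.20 (1.1 to 1.31), and 1.68 (1.54 to 1.82) without the 3 genes. By section the excess ran from 0.08 in section 10 to 2.59 in section 1, and its limits included 0 in sections 8 and 10. In section 6 all genes had only 12.4% of their MIDs in the centre. They had 271 MIDs per 1000 spots there, against 640.0 in the ring and 498 off the tissue, so the values of section 6 are uncertain. With at least 20 MIDs in the 10 sections, 19 of 27 members had a ratio at least 2-fold that of all genes, over a background of 9.12%. Highest were TraesCS5B03G0221000 (3.01), TraesCS2B03G1542000 (2.94), TraesCS4A03G0576000 (2.81, 2.13 to 3.51) and TraesCS5A03G0264700 (2.79, 1.99 to 3.64). Those below 0 were TraesCS5A03G1242900 (-0.11), TraesCS2B03G1002900 (-0.15), TraesCS1D03G0200400 (-0.47) and TraesCS4A03G0978800 (-1.05, with 2 of 16 MIDs in the centre). The limits of each included 0.

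The outlines of sections 1 to 5 and of sections 6 to 10 lie in the same arrangement, 5 places each. No source used here says whether sections of 1 place come from the same root. The highest section fell at the same place in both sets for 16 of 27 members tested, beside a background of 43.8%. For 9 of the 27 that place was the one of sections 5 and 10, beside a background of 8.10%. Some of the 9 rested on few MIDs, TraesCS4A03G1205400 on 4 and 5 and TraesCS5D03G0855600 on 4 and 6 in sections 5 and 10. These are small sections in which the root cap list reached 3476 and 4931 CPM, against 20.5 to 97.1 in the others, and in which the provascular list was at 36.1 and 38.7. TraesCS5D03G0829100 had 10 and 8 of its 19 root cap region MIDs there, 14 of the 18 in the ring, and none in 7 sections. TraesCS5D03G0227200 had 18 of 23 there, 13 of them in the centre. TraesCS7D03G0202500 had 21 of 32 and TraesCS4D03G0283400 had 41 of 101, with 139 CPM in section 5 and 77.5 in section 10. The homolog of diphthine methyltransferase, TraesCS2B03G0976900, had 40 of 104 there, and 39 of the 40 were in the ring, while it had 73.2% in the centre of the circles. All genes had 12.2% of their MIDs in these 2 sections.

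**Figure D4:**
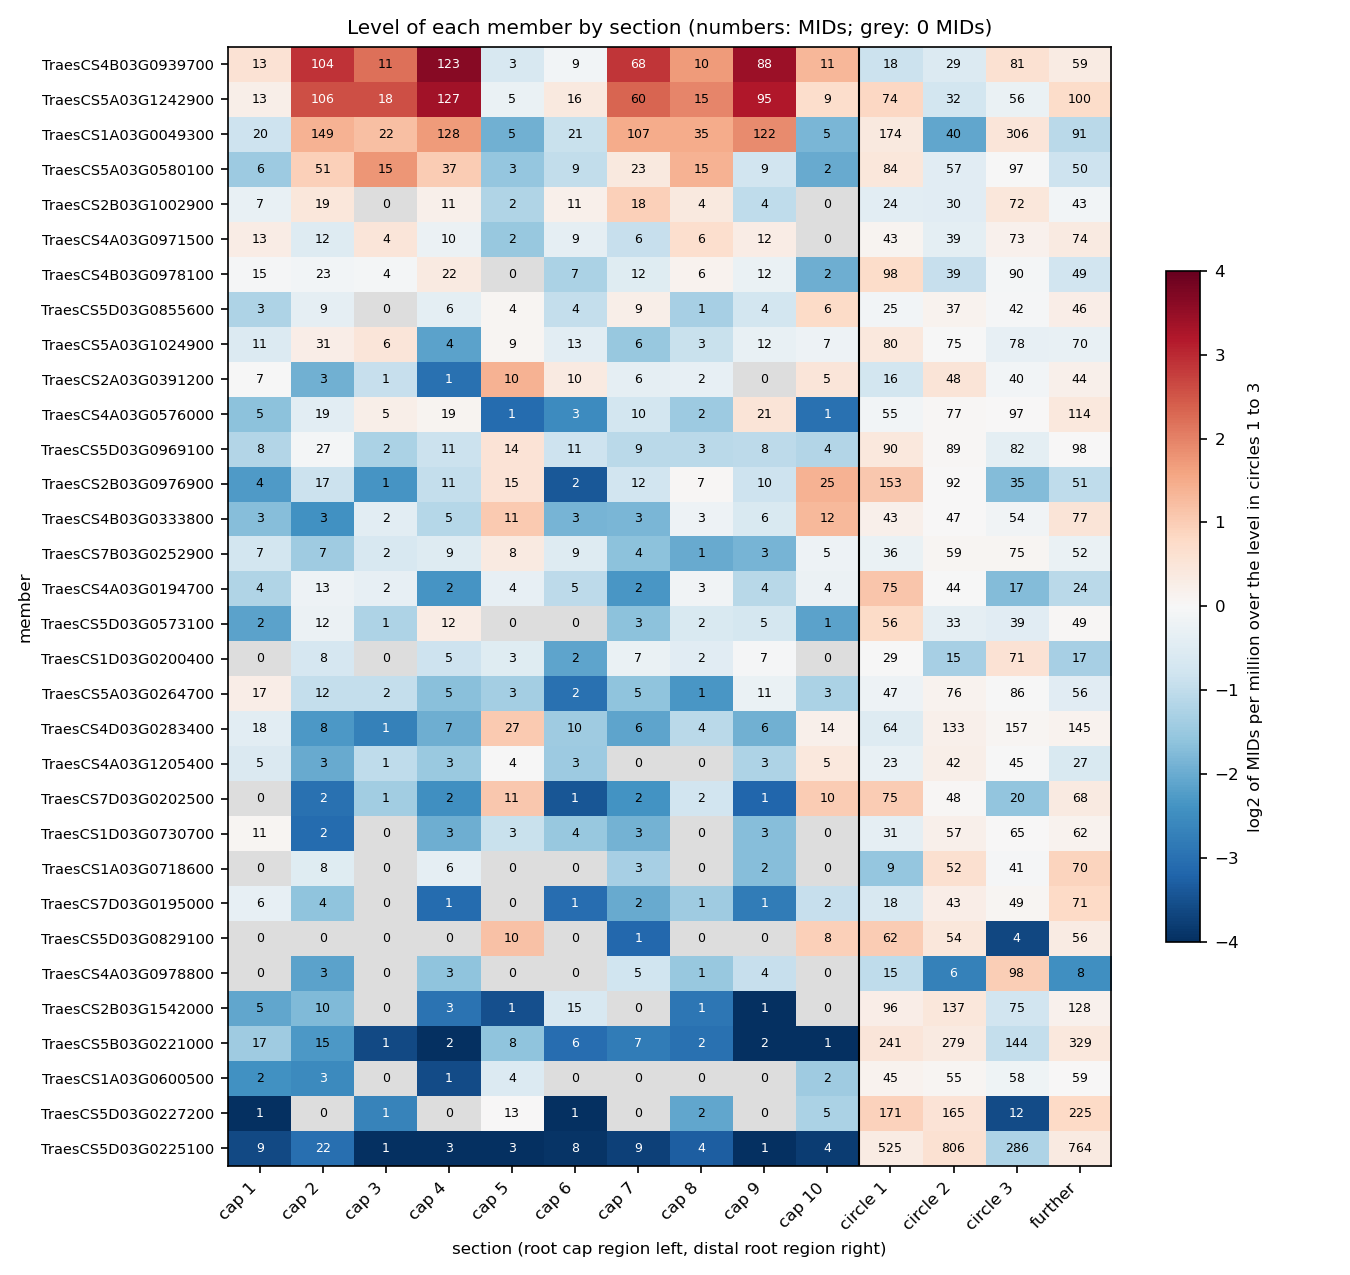
Level of each member (rows, ordered by the ratio of root cap region to distal circles) in the 10 root cap region sections (left of the line) and in the 4 distal sections (right). Colour is the log2 ratio of CPM to the gene's level in circles 1 to 3, the number is the count of MIDs and grey marks a count of 0. The top 3 rows are all above their level in the circles in sections 2, 3, 4, 7, 8 and 9, and TraesCS5D03G0829100 has 18 of its 19 root cap region MIDs in sections 5 and 10.

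The subgenome shares of the MIDs turned on 1 gene. Of the members 13 were A, 8 were B and 11 were D genes, and 31.0%, 25.7% and 43.3% of their MIDs were A, B and D. Without TraesCS5D03G0225100 the shares of MIDs were 38.9%, 32.2% and 28.9%, against 36.0%, 32.4% and 30.1% for all genes open to the rule. By chromosome group, 11 members lay on group 5 (34.4%, against 16.6% of the genes open to the rule) and 9 on group 4 (28.1%, against 13.4%). Groups 3 and 6 held none, while they held 13.3% and 12.3% of the genes open to the rule.

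No table used here pairs a member with a homeolog, the copy of a gene on another subgenome. The triad table of the study lists TraesCS1A03G0049300 without the IDs of its copies. Members of 1 chromosome group with nearby ID numbers are therefore set side by side without being called homeologs. TraesCS5D03G0225100 and TraesCS5B03G0221000 had 64 and 61 MIDs in the root cap region, against 525 and 241 in circle 1, 806 and 279 in circle 2, 286 and 144 in circle 3, and 764 and 329 in the further section. The D gene had 51.2% (42.1 to 60.2%) of their sum in the root cap region, against 70.9% (69.0 to 72.7%) in the circles and 69.9% (67.1 to 72.6%) in the further section. TraesCS5A03G0580100 and TraesCS5D03G0573100 had 170 and 38 MIDs in the root cap region (81.7% for the A gene, 75.8 to 86.7%), against 238 and 128 in the circles (65.0%, 59.9 to 69.9%) and 50 and 49 in the further section (50.5%, 40.3 to 60.7%). TraesCS1D03G0730700 and TraesCS1A03G0718600 had 29 and 19 MIDs in the root cap region, against 153 and 102 in the circles and 62 and 70 in the further section. Reads shared by near-identical copies may have been split or lost in counting, so such shares are uncertain.

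Some members had neighbours that also had a high share in the centre. Gene IDs of this annotation are numbered along the chromosome, and within 2500 ID numbers of the members 161 other genes had at least 20 MIDs in the circles. Of these 22 (13.7%) had 45% or more in the centre, beside a background of 4.03% over 27305 genes. They fell near 13 members, of which 5 had 2 or more. The largest runs, around TraesCS7D03G0202500 and TraesCS4A03G0978800, are given below. The calls rest on the circles, some on few MIDs, and several of these genes had under 45% in the centre of the further section. Between the 2 group 5 members TraesCS5D03G0225100 and TraesCS5D03G0227200 lay TraesCS5D03G0225900, with 52 of 68 MIDs in the centre (76.5%), and TraesCS5D03G0226000, with 27 of 33 (81.8%). Next to TraesCS5B03G0221000 lay TraesCS5B03G0221800, with 23 of 30 (76.7%), and TraesCS5B03G0223400, with 50 of 75 (66.7%). TraesCS5B03G0223400 had 14.0% of its centre MIDs in the inner core and 38, 36 and 1 MIDs in circles 1, 2 and 3, the values of TraesCS5D03G0227200 being 11.4% and 171, 165 and 12.

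Around TraesCS7D03G0202500 there were 7 such genes within 600 ID numbers, from TraesCS7D03G0201900 with 46 of 60 MIDs in the centre (76.7%) to TraesCS7D03G0203100 with 26 of 47 (55.3%). One of them, TraesCS7D03G0202800, had 207 of 354 (58.5%), with 338 of the 354 in circle 3, and so failed the 4-fold limit. All 7 had their highest count in circle 3. The member itself ran the other way, with 75, 48 and 20 MIDs in circles 1, 2 and 3. Around TraesCS4A03G0978800 were TraesCS4A03G0978300 (42 of 72, 58.3%), TraesCS4A03G0978600 (17 of 26, 65.4%) and TraesCS4A03G0978900 (12 of 20, 60.0%), with 61, 16 and 18 of these MIDs in circle 3. These neighbours were picked out after their values were seen.

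Most members were counted almost wholly in exons, 27 with at least 97% exonic MIDs and a median of 99.8%, against 99.6% for all genes open to the rule. In 3 members exonic MIDs were the minority, 1.54% for TraesCS1A03G0049300, 21.4% for TraesCS2B03G1002900 and 26.4% for TraesCS4B03G0333800. Most of their MIDs come from parts of the locus that the annotation does not hold as exon, and the transcripts behind them are not known from these counts.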

How the data were processed

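Reads were mapped and counted by the authors with version 1.0 of the STOmics Analysis Workflow. The deposited counts give MIDs for each gene at each spot, and the exonic ones among them, as raw values over the whole capture area. No source used here gives the genome build or the mapping parameters of these files. In all, 28281662 MIDs lay on the chip of the root cap region and 77515877 on that of the distal root region, and organelle rows (0.00193% and 0.00494%) were left out.

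The circles were given with the rule. The further section and the 10 root cap region outlines were circles drawn by hand on maps of all MIDs before any gene was mapped. Each spot went to the section of smallest distance/R. Limits are exact 95% Poisson or Clopper-Pearson limits, with the totals of all genes taken as known. Python 3.11.15, numpy 2.4.6, pandas 2.3.3 and scipy 1.17.1 were used. The log2 centre enrichment and its limits were tested on simulated binomial counts with known enrichment. Spot placement, outlines, the rule, level ratios and core shares were not simulated.

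The members, the marker lists and the comparisons were chosen with earlier results of these data known. Named genes are members with a name in the study's tables, the 10 with the most MIDs, and the 5 highest and 5 lowest in centre share, core share and level ratio, with the genes nearest the limit. Not every one is printed, and others were named after their values were seen. Radii, boundaries, thresholds, exonic counts, off-tissue subtraction and left-out sections or members were varied.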

Additional observations from a re-analysis of the deposited data

How the results depend on the processing

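The rule found 32 genes. It found 58 with radii 10% larger, 18 and 121 with the centre ending at 0.45 and 0.55 R, 85 and 19 with limits of 40% and 50%, 149 and 13 with at least 50 and 200 MIDs, 548 with the off-tissue density subtracted, and 48 to 68 without 1 circle (68 without circle 3, 49 without circle 2). The fewest members shared were 13 of 32 (at least 200 MIDs) and 18 (boundary at 0.45 R). Without circle 1, 2 or 3 the rule kept 24, 19 and 24 of the members. They were 50.0%, 38.8% and 35.3% of the genes then found, so membership depended on single circles. The centre enrichment (log2) kept its direction throughout, but in the circles the rule itself set that direction. In the circles (2.42) it was 2.19 with radii 10% smaller, 3.64 with off-tissue density subtracted, 2.24 without the largest member, 1.65 as the median over members, 2.11 without the largest 2 (chosen after seeing the data), and 2.25 to 2.57 without 1 circle. In the further section (2.47) the same settings gave 2.19, 4.49, 2.25, 1.81 and 2.04. In the root cap region (1.20) the off-tissue subtraction gave 3.26, the median over members 1.43 and the sum without the 3 members with the most MIDs there (chosen after seeing the data) 1.68, and without 1 section it was 1.09 to 1.28. The level ratio of root cap region to circles (0.683) was 0.796 with the 100 most counted genes of either chip left out of the reference, 0.652 with exonic MIDs, 0.839 without the largest member, 0.395 without those 3, and 0.585 (without circle 3) to 0.752 without 1 section. With non-exonic MIDs only (chosen after seeing the data) the ratio was 1.21 for TraesCS1A03G0049300, against 2.03 with all MIDs, 0.627 against 1.04 for TraesCS2B03G1002900 and 0.394 against 0.610 for TraesCS4B03G0333800. The core share (32.4%) was 20.0% and 45.4% with the core ending at 0.20 and 0.30 R, 29.4% and 35.8% with radii 10% smaller and larger and 34.6% without the largest member. Subgenome shares became 27.2% (A) and 47.7% (D) with exonic MIDs, and 38.9% (A), 32.2% (B) and 28.9% (D) without the largest member. The cause of these shifts was not tested. No paired analysis was possible because each region has 1 library. Irregular outlines and low counts per section limit the root cap region values.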

Other observations

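The 4-fold limit left out 13 genes that met the other conditions, and these split by section. TraesCS1D03G0025100 had 827, 407 and 33 MIDs in circles 1, 2 and 3, with 48.4% in the centre, and TraesCS2D03G1305500 had 395, 163 and 62, with 53.7%. In the further section they had 175 and 145 MIDs, 56.6% and 79.3% of them in the centre. TraesCS1A03G0908100 (128, 39 and 2 MIDs, 61.5% in the centre) and TraesCS1B03G0809200 (93, 19 and 8, 55.0%) had the same order of circles. Of the 13 genes 7 had their highest count in circle 3, among them TraesCS7D03G0202800 (9, 7 and 338), TraesCS2B03G0857900 (1, 55 and 199), TraesCS5B03G0633000 (5, 91 and 145) and TraesCS7A03G0218500 (3, 10 and 120), of which the last had 2 MIDs in the further section and 2 in the root cap region. TraesCS3A03G0091900 had the highest centre share of the 13 (66.3%), with 38 of 49 MIDs in the centre of the further section (77.6%) and 118 MIDs in the root cap region. These genes were named after their values were seen.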
